A study of Mus musculus with 54 samples.

Results

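The genes studied here present peptides to T cells: the histocompatibility genes of the mouse H2 complex, the proteins that load peptides onto their products, the inducible proteasome subunits that cut the peptides, and the regulators of both classes. Every symbol beginning with H2- in the liver expression table was taken apart from 1 H2-Ke symbol, which left 22, and 14 further symbols were named one by one, of which 13 were in the table. Psmb9 was not analysed here. This gave 35 of the 13815 genes of the table: 16 class I heavy chains, 6 class I loading genes (B2m, Tap1, Tap2, Tapbp, Tapbpl and Erap1), 4 genes of the immunoproteasome and its activator (Psmb8, Psmb10, Psme1 and Psme2), 7 class II genes (6 chains and Cd74) and 2 regulators (Ciita and Nlrc5). Of the 35, 26 lie on chromosome 17, most of them in the H2 complex itself. The file annotated H2-K2 and H2-Q5 as pseudogenes, H2-Bl and H2-T10 as polymorphic pseudogenes, and Nlrc5 as a long non-coding RNA.

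Class I molecules, a heavy chain paired with beta-2-microglobulin, sit on nearly all nucleated cells and display fragments of proteins made inside the cell. The proteasome cuts these fragments, the TAP transporter moves them into the endoplasmic reticulum, and tapasin and the aminopeptidase ERAP1 load and trim them. Class II molecules display fragments of ingested proteins and are made mainly by dendritic cells, macrophages and B cells, with Cd74 as the invariant chain that escorts them and H2-DM as the exchange factor that loads them. CIITA is the master activator of class II genes and NLRC5 of class I genes, and interferon-gamma raises both classes and swaps inducible subunits into the proteasome. In the liver most RNA comes from hepatocytes, which carry class I and little class II, while Kupffer cells, dendritic cells and lymphocytes carry class II.

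RNA was sequenced from whole liver of 5 groups of 3 libraries. On the AMLN diet, which is rich in fat, fructose and cholesterol, the groups were DKO, LiFKO and Control, and on normal chow they were LiFKO and Control. LiFKO and Control mice carried floxed Flcn, the gene of folliculin, and received an adeno-associated virus with Cre (LiFKO) or GFP (Control) under TBG, a promoter active in hepatocytes, so other liver cells kept Flcn. DKO mice carried floxed Flcn, lacked Tfe3 in the whole body (Tfe3 -/Y) and received the Cre virus; they were a line of their own, no DKO libraries came from chow, and no RNA group lacked Tfe3 alone. Folliculin lets mTORC1 phosphorylate TFE3, which keeps this transcription factor of lysosomal genes out of the nucleus. Diets lasted 17 to 18.5 weeks for RNA, and livers were taken after 4 to 6 hours without food. TFE3 binding was mapped by ChIP-seq, in pooled peak lists from liver of LiFKO and Control mice fed chow without a fast (4 libraries each), and from LiFKO and Control mice after 9 days of FPC diet, with or without a virus for HA-tagged nSREBP-1c ("1c").

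Expression was deposited as quantile-normalised log2 values without counts, so the depth of the libraries is unknown and no counting interval can be given. The values were not divided by gene length, and levels are compared between libraries and not between genes. Whether each library is a mouse of its own is not stated in the labels, so p-values measure the spread between these libraries. Replicate libraries correlated at 0.9706 to 0.9878 over all genes. Flcn was lower in each LiFKO library than in each Control library of its diet, at 10.25 to 10.56 in AMLN LiFKO against 10.92 to 11.06 in AMLN Control, and at 10.14 to 10.55 in chow LiFKO against 11.33 to 11.55 in chow Control. It was at 9.12 to 9.91 in DKO, below every AMLN LiFKO and Control library. Tfe3 was at 9.88 to 10.20 in DKO, against 9.92 to 10.07 in AMLN LiFKO and 10.20 to 10.30 in AMLN Control, so the value over the whole gene did not separate the libraries labelled DKO. All 10 hepatocyte markers were measured, with mean log2 values of 14.39 to 21.11, against an upper quartile of 11.27 over all genes.

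The promoters of the classical class I genes carry 2 adjoining sequence blocks known to bind NF-kappaB and interferon regulatory factors, and they are shown here because the class I and class II genes are set against each other below. The stretches are from RefSeq promoters on build GRCm38.p6, with GGGATTCCC (the kappaB site) and TTTCACTTC (the interferon-stimulated response element, on the coding strand) in capitals where they matched exactly.
H2-K1: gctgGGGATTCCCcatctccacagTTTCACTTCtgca
H2-D1: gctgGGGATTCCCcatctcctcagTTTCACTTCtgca
H2-Q4: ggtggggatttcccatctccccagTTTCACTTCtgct
H2-Q6: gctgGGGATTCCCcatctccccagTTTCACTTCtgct
H2-Q7: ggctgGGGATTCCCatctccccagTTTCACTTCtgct
H2-Q10: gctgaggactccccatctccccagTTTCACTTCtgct
Against the H2-K1 stretch, with positions counted from 1 at its 5′ end, H2-D1 differed by A21T, H2-Q6 by A21C and A37T, H2-Q4 by C2G, C11T, A21C and A37T, and H2-Q10 by G5A, T9C, A21C and A37T, while H2-Q7, compared without gaps, differed at 8 positions. In H2-Q10, a class I gene whose product is secreted by the liver, the changes G5A and T9C fall in the kappaB block, and its interferon block was intact. Searched on both strands of promoters running from 250 bases before to 50 bases after the gene start, TTTCACTTC was found in 7 of 10 class I heavy chain promoters (also H2-M3) and GGGATTCCC in 4 of 10. The same letters were in 0.505% and 0.353% of all 32851 promoters. No class II, loading or immunoproteasome promoter among the 23 members with a RefSeq promoter held either of them.

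The class II promoter of H2-Aa (chr17:34287774-34288073, minus strand) is shown for the other arrangement, an X2 box TGACGTCA (the cyclic AMP response element) before a Y box ATTGG, both in capitals and both part of the unit through which CIITA acts.
H2-Aa: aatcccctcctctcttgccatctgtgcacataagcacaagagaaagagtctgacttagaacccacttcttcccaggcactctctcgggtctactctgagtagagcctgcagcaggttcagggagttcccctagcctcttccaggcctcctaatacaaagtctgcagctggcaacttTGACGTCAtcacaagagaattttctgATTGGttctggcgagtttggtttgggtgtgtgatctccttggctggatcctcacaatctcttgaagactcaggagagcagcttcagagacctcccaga
TGACGTCA was present in 1.79% of all promoters and, among the members, in H2-Aa. ATTGG was in 4 of 5 class II, 9 of 10 class I heavy chain, 3 of 4 loading and 0 of 4 immunoproteasome promoters, and in 37.4% of all promoters, so these 5 letters are common in promoters of any kind. These matches describe the letters in 300 bases and are no measure of binding.

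**Figure D1:**
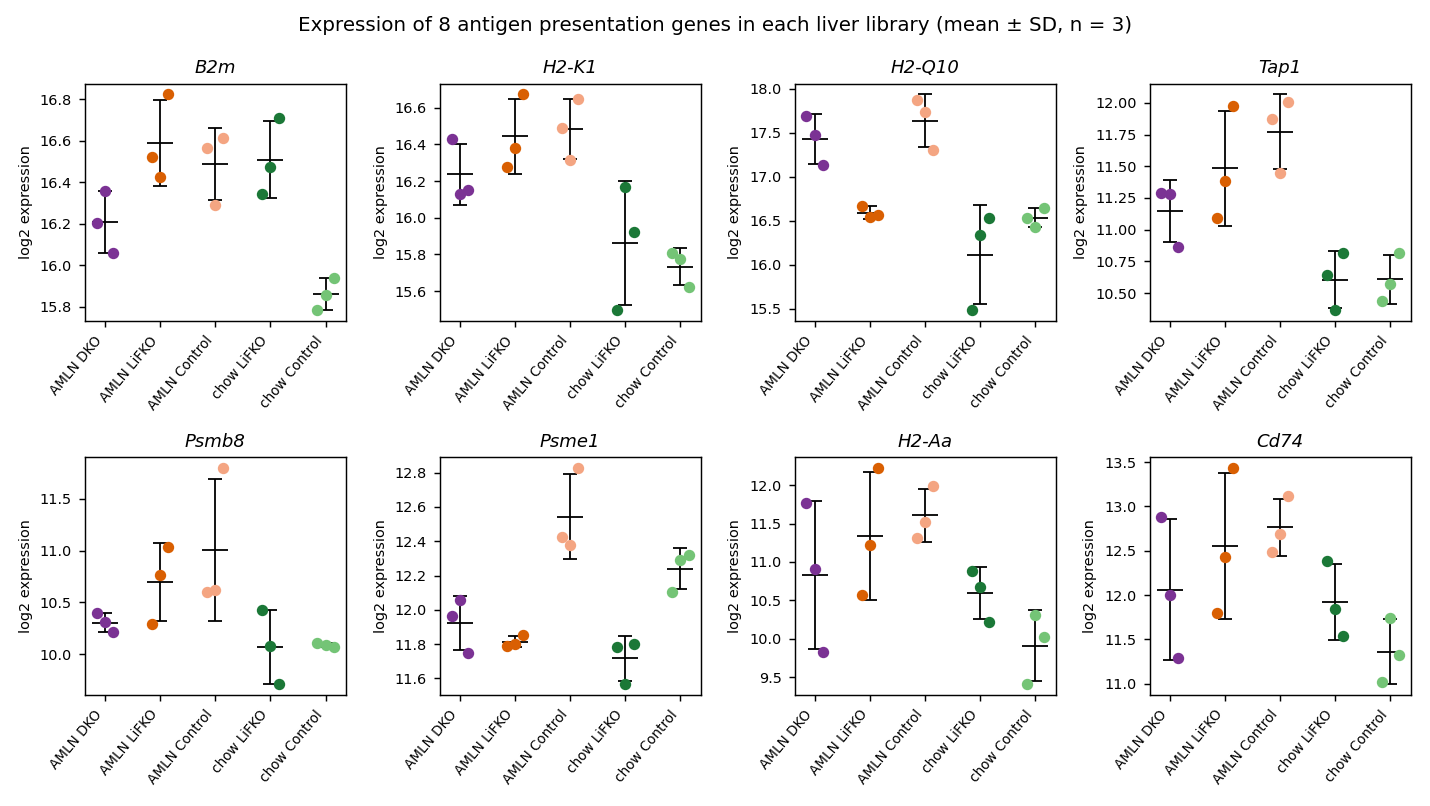
Log2 expression (vertical axes, which do not start at 0 and differ between panels) of B2m, H2-K1, H2-Q10, Tap1, Psmb8, Psme1, H2-Aa and Cd74 in each of the 15 liver libraries, with the mean and SD of each group (n = 3). The 3 chow LiFKO libraries lie above the 3 chow Control libraries for B2m and below them for Psme1, and H2-Q10 is high in the DKO and Control libraries on AMLN diet.

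The AMLN diet in Control mice gave the broadest rise of the set. On AMLN, 18 of 35 members rose and 0 fell against chow, where 11.2% of all genes rose and 11.6% fell. A positive log2 fold change was found in 34 of 35 members and in 6374 of the 13815 genes. The members share libraries and reads, so their signs are not independent of each other. The median log2 fold change of the members was 0.75, against -0.04 over all genes. By role, 6 of 7 class II genes, 8 of 16 class I heavy chains, 3 of 6 loading genes, 1 of 4 immunoproteasome genes and 0 of 2 regulators rose. The medians were 1.69 for class II, 0.71 for class I heavy chains, 0.50 for loading and 0.26 for the immunoproteasome genes. Calls are limma tests at a Benjamini-Hochberg adjusted p under 0.05 over all genes of the table.

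The class II chains were the members with the highest fold changes under the AMLN diet in Control. H2-Aa, the alpha chain of I-A, was at log2 11.31, 11.51 and 11.99 in AMLN Control, against 9.41, 10.31 and 10.02 in chow Control. No AMLN library overlapped the chow range, and H2-Aa rose by 1.69 (SE 0.44, adjusted p = 0.0147). Its partner H2-Ab1, the I-A beta chain, was at 11.23, 11.45 and 11.95 in AMLN Control, against 9.53, 10.09 and 9.67 in chow Control, and rose by 1.78 (SE 0.43, adjusted p = 0.010). The models of H2-Aa (mm9 chr17:34406276-34424772) and H2-Ab1 (chr17:34400154-34406363) overlap at their edge, and no source states that the counting used strand. H2-Eb1, the beta chain of I-E, was at 11.20, 11.32 and 11.77 in AMLN Control, against 9.44, 9.96 and 9.29 in chow Control, and rose by 1.87 (SE 0.45, adjusted p = 0.00987). H2-DMb1, a chain of the exchange factor, was at 8.56, 8.69 and 9.14 in AMLN Control, against 6.21, 6.61 and 7.04 in chow Control, a rise of 2.18 (SE 0.46, adjusted p = 0.00499). H2-DMa, the other chain of that factor, rose by 1.62 (SE 0.44, adjusted p = 0.0174), and H2-DMb2 had a log2 fold change of 1.67 that missed the threshold (adjusted p = 0.0561). By mean level, H2-DMb1 and H2-DMa lay in the lower quartile of all genes. Cd74, the invariant chain, was at 12.49, 12.69 and 13.12 in AMLN Control, against 11.02, 11.74 and 11.32 in chow Control, and rose by 1.40 (SE 0.41, adjusted p = 0.0234). The groups of these called chains and of Cd74 did not overlap.

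Among these, Cd74 was no longer called when chow Control replicate 1 or 3 or AMLN Control replicate 2 or 3 was left out, nor was H2-Aa without chow Control replicate 1, nor H2-DMa without chow Control or AMLN Control replicate 3, at adjusted p from 0.0541 to 0.0869. Ciita, the regulator of these genes, was at 7.73, 7.64 and 7.34 in AMLN Control, against 6.21, 5.95 and 6.43 in chow Control. The groups did not overlap, and its log2 fold change of 1.37 (SE 0.53) missed the threshold at adjusted p = 0.0775. Whole liver was sequenced, so fewer or more cells of a type and less or more RNA per cell cannot be told apart.

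Marker levels of the cell types that carry class II are therefore given beside these values, as the log2 of the summed level of each list. Of 10 dendritic cell markers 4 were in the table, and their sum was at 9.65 to 9.74 in AMLN Control, against 8.87 to 9.48 in chow Control; Itgax, the CD11c integrin, rose by 2.92 (SE 0.56, adjusted p = 0.00287). Of 8 B cell markers, Blnk, Ighm and Igkc were in the table, with a sum of 10.30 to 10.95 in AMLN Control, against 9.60 to 10.28 in chow Control, and Ighm rose by 2.19 (SE 0.50, adjusted p = 0.00733). Cd79a, Cd79b, Ms4a1 and Pax5, which define B cells, were among those with no row. Of 13 T and NK cell markers 3 were in the table, at 7.47 to 8.01 in AMLN Control, against 6.69 to 7.36 in chow Control. The 15 macrophage and Kupffer cell markers summed to 15.38 to 15.59 in AMLN Control, against 14.58 to 15.58 in chow Control, with 4 that rose (Lgals3, Cd68 and Cd5l among them) and 0 that fell. The first 3 sums did not overlap between the diets and the macrophage sum did. Taken singly, Itgax was the 1 of 4 dendritic cell markers called (median log2 fold change of the list 0.25). Ighm was the 1 of 3 B cell markers called (median 0.21), and 0 of 3 T and NK cell markers were called (median 0.63). Over all genes 11.2% rose. The part of these cells in the class II values was not tested.

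Class I heavy chains had smaller fold changes than class II genes. H2-K1, a classical class I chain (mm9 chr17:34132962-34137278), was at log2 16.49, 16.32 and 16.65 in AMLN Control, against 15.81, 15.77 and 15.62 in chow Control, a rise of 0.75 (SE 0.16, adjusted p = 0.00584). H2-D1, the other classical chain (chr17:35399675-35404444), was at 15.55, 15.37 and 15.72 in AMLN Control, against 14.82, 14.92 and 14.64 in chow Control, and rose by 0.75 (SE 0.17, adjusted p = 0.00711). The groups of both chains were separate. H2-Q10, the secreted chain (chr17:35607034-35611508), was at 17.88, 17.74 and 17.31 in AMLN Control, against 16.53, 16.43 and 16.65 in chow Control, a rise of 1.10 (SE 0.23, adjusted p = 0.00500). H2-Q1 rose by 1.37 (SE 0.31, adjusted p = 0.00702), the highest fold change among class I heavy chains. H2-Q6 rose by 1.14 (SE 0.30, adjusted p = 0.0149), H2-T24 by 0.88, H2-T22 by 0.67 and H2-T23, the Qa-1 chain that is a ligand of NK cell receptors, by 0.52. H2-Q6 read 10.95 to 12.18 in AMLN Control, against 10.05 to 10.35 in chow Control, and its fold change was 0.74 without AMLN Control replicate 3. The H2 genes are close paralogues whose reads can map to more than 1 of them, so the split of signal among the H2-Q and H2-T genes is uncertain.

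Of the loading genes, B2m, the light chain of all class I molecules (mm9 chr2:121973422-121978819), was at 16.56, 16.29 and 16.61 in AMLN Control, against 15.79, 15.85 and 15.94 in chow Control. All AMLN libraries lay above all chow libraries, and B2m rose by 0.63 (SE 0.14, adjusted p = 0.00611). Tap1, a chain of the peptide transporter, was at 11.87, 11.44 and 12.01 in AMLN Control, against 10.44, 10.57 and 10.82 in chow Control, a rise of 1.16 (SE 0.21, adjusted p = 0.00208). Tap2, its partner, rose by 0.57 (adjusted p = 0.0379), a call lost without any 1 of the 6 libraries (adjusted p = 0.0575 to 0.102). Psmb8, an inducible proteasome subunit that lies next to Tap1, was at 10.61, 10.62 and 11.80 in AMLN Control, against 10.11, 10.09 and 10.07 in chow Control. It rose by 0.92 (SE 0.27, adjusted p = 0.0261), and without AMLN Control replicate 3, the library that stood apart, its fold change was 0.52 and the call was lost (adjusted p = 0.0740). It was also lost without any 1 chow Control library. H2-T23 had a fold change of 0.26 without AMLN Control replicate 3, and its call was lost there and without any 1 chow Control library; that of H2-T24 was lost without chow Control replicate 1 or AMLN Control replicate 3. Of the 18 calls, 11 held without each of the 6 libraries in turn: B2m, H2-Ab1, H2-D1, H2-DMb1, H2-Eb1, H2-K1, H2-Q1, H2-Q10, H2-Q6, H2-T22 and Tap1. Nlrc5, the class I regulator, had a log2 fold change of 0.02.

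**Figure D2:**
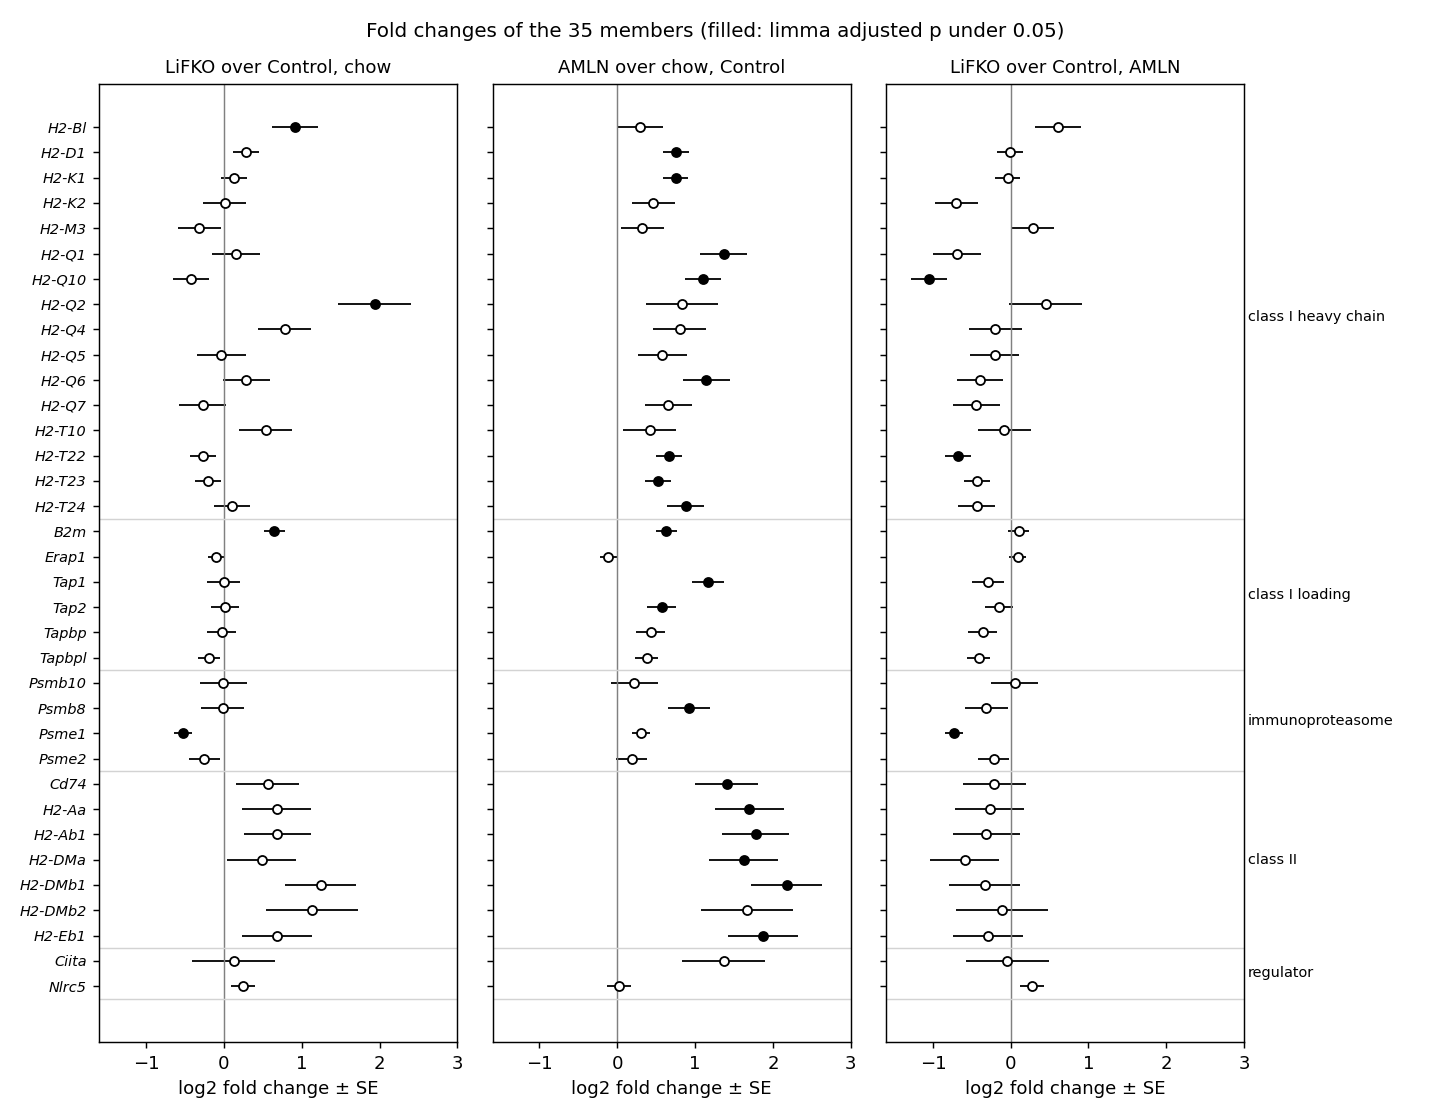
Log2 fold change with its SE (horizontal axes) of the 35 members, grouped by role from class I heavy chains at the top to regulators at the bottom, for LiFKO over Control on chow, AMLN over chow in Control, and LiFKO over Control on AMLN; filled points passed adjusted p under 0.05. In the middle panel 18 points are filled, all to the right of 0, and in the right panel the 3 filled points, H2-Q10, H2-T22 and Psme1, lie to the left of it.

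Loss of Flcn on chow raised 3 members and lowered 1, where 12.5% of all genes rose and 13.2% fell, so the share of members called was below that of all genes. The median log2 fold change was 0.13 over the members and -0.05 over all genes. B2m was at log2 16.35, 16.47 and 16.71 in chow LiFKO (mean 16.51 ± 0.18, SD, n = 3), against 15.79, 15.85 and 15.94 in chow Control (15.86 ± 0.08). The groups were far apart, and B2m rose by 0.65 (SE 0.14, adjusted p = 0.00298), which is 1.57-fold. The classical heavy chains H2-K1 and H2-D1 had smaller fold changes that did not pass the test. H2-K1 was at 15.49, 16.17 and 15.92 in chow LiFKO, against 15.81, 15.77 and 15.62 in chow Control (0.13, adjusted p = 0.619). H2-D1 was at 15.12, 15.28 and 14.83 in chow LiFKO, against 14.82, 14.92 and 14.64 in chow Control (0.28, adjusted p = 0.247). For both chains the libraries of the groups overlapped.

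H2-Q2, a class I chain of the Q region, was at 9.66, 7.74 and 8.18 in chow LiFKO, against 6.91, 5.91 and 6.96 in chow Control, and rose by 1.94 (SE 0.46, adjusted p = 0.00679). H2-Bl, annotated as a polymorphic pseudogene, was at 8.56, 8.43 and 8.27 in chow LiFKO, against 7.38, 8.03 and 7.11 in chow Control. It rose by 0.91 (SE 0.29, adjusted p = 0.0340). Leaving out chow Control replicate 1 or 3, or any 1 chow LiFKO library, ended this call (adjusted p = 0.0539 to 0.134). Psme1, the alpha subunit of the PA28 proteasome activator (mm9 chr14:56196960-56200366), was at 11.78, 11.57 and 11.80 in chow LiFKO, against 12.11, 12.29 and 12.32 in chow Control. It fell by 0.52 (SE 0.12, adjusted p = 0.00455), with no overlap between the groups. The calls of B2m, H2-Q2 and Psme1 held without each of the 6 libraries. H2-Q2 had a log2 fold change of 1.37 without chow LiFKO replicate 1, its highest library. By mean level, H2-Q2 and H2-Bl lay in the lower quartile of all genes.

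No class II gene passed the test in chow LiFKO, with all 7 log2 fold changes positive, from 0.49 to 1.25 and a median of 0.68. Over all genes 6106 of 13815 were positive, and the 7 signs are not independent of each other. H2-DMb1 was at 8.38, 7.64 and 7.57 in chow LiFKO, against 6.21, 6.61 and 7.04 in chow Control, and came closest to the threshold (1.25, adjusted p = 0.0602). H2-Aa was at 10.88, 10.68 and 10.22 in chow LiFKO, against 9.41, 10.31 and 10.02 in chow Control (0.68, adjusted p = 0.293), and Cd74 had a log2 fold change of 0.56 (adjusted p = 0.346). The B cell sum was at 10.33 to 10.93 in chow LiFKO, against 9.60 to 10.28 in chow Control. Of its 3 markers Blnk, an adaptor of B cell receptor signalling, was the 1 called, up by 2.77 (SE 0.35, adjusted p = 5.738e-05). The median log2 fold change of the 3 was 0.06. The dendritic cell sum was at 8.88 to 9.44 in chow LiFKO, against 8.87 to 9.48 in chow Control, and the macrophage sum at 14.75 to 15.18 in chow LiFKO, against 14.58 to 15.58 in chow Control. Among the 15 macrophage markers 1 rose and 0 fell, namely Cd68, which is also a lysosomal protein, up by 2.22. The part of these cells was not tested.

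Loss of Flcn on AMLN diet lowered 3 of 35 members and raised 0, where 9.63% of all genes fell and 10.1% rose. The share of members that fell was thus near that of all genes, and the share that rose was below it. The median log2 fold change was -0.27 over the members and -0.02 over all genes. H2-Q10 was at 16.67, 16.54 and 16.56 in AMLN LiFKO, against 17.88, 17.74 and 17.31 in AMLN Control. The LiFKO libraries were close together and below all Control libraries, and H2-Q10 fell by 1.05 (SE 0.23, adjusted p = 0.00536). The sum of 10 hepatocyte markers was at 21.59 to 21.66 in AMLN LiFKO, against 22.12 to 22.21 in AMLN Control, and that of 8 endothelial markers at 14.47 to 14.56 in AMLN LiFKO, against 13.95 to 14.12 in AMLN Control. Neither sum overlapped between the groups. Taken singly, 0 of the 10 hepatocyte markers were called (median log2 fold change -0.24). Of the 8 endothelial markers 1 rose and 0 fell (median 0.14). In chow Control the hepatocyte sum was at 22.24 to 22.35, above all AMLN Control libraries, while H2-Q10 rose by 1.10 on AMLN in Control. It was at 21.43 to 21.87 in chow LiFKO, below all chow Control libraries. H2-Q10 was not called there (log2 fold change -0.42, adjusted p = 0.210). The part of these cells in the H2-Q10 values was not tested. Psme1 was at 11.79, 11.80 and 11.85 in AMLN LiFKO, against 12.42, 12.38 and 12.83 in AMLN Control, and fell by 0.73 (SE 0.12, adjusted p = 0.000599). H2-T22, a non-classical chain seen by gamma-delta T cells, was at 11.94, 12.29 and 12.55 in AMLN LiFKO, against 12.87, 12.64 and 13.31 in AMLN Control, and fell by 0.68 (SE 0.17, adjusted p = 0.0107). The calls of H2-Q10 and Psme1 held without each of the 6 libraries, and that of H2-T22 was lost without AMLN LiFKO replicate 1 (adjusted p = 0.0570), in a fit of the groups compared (0.0565) and after centring on the constitutive proteasome, where its log2 fold change was -0.36 (adjusted p = 0.0953).

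The other class I members and class II did not pass the test on this diet. B2m was at 16.52, 16.43 and 16.82 in AMLN LiFKO, against 16.56, 16.29 and 16.61 in AMLN Control (log2 fold change 0.10, adjusted p = 0.663), and H2-K1 had a log2 fold change of -0.04. H2-Aa was at 10.57, 11.22 and 12.22 in AMLN LiFKO, against 11.31, 11.51 and 11.99 in AMLN Control (-0.27, adjusted p = 0.728). Cd74 was at 11.80, 12.43 and 13.43 in AMLN LiFKO, against 12.49, 12.69 and 13.12 in AMLN Control (-0.21, adjusted p = 0.768). The LiFKO libraries spanned more than the Control range in both genes. The B cell sum was at 10.61 to 11.50 in AMLN LiFKO, against 10.30 to 10.95 in AMLN Control. Of its 3 markers, Blnk was the 1 called in each LiFKO comparison with Control, up by 2.78 on AMLN (adjusted p = 8.361e-05), and it fell by 2.26 in DKO against LiFKO.

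The difference of the Flcn effect between the diets was tested as an interaction, and 0 members passed in either direction, where 0.282% of all genes were more positive and 0.76% more negative on AMLN. An unadjusted p under 0.05 in the limma fit was reached by 3 members: H2-Q2 (-1.49), H2-DMb1 (-1.58, adjusted p = 0.254) and B2m (-0.55, adjusted p = 0.188). The median over the 7 class II genes was -1.0, and over all genes 0.03. B2m was thus called on chow and not on AMLN, without the difference between the diets passing the test.

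The diet comparison within LiFKO called fewer genes of the whole table, 1.58% that rose and 2.16% that fell on AMLN, and Tap1 was the 1 member of the 35 that rose, with 0 that fell. Tap1 was at 11.09, 11.38 and 11.98 in AMLN LiFKO, against 10.64, 10.36 and 10.81 in chow LiFKO, and rose by 0.88 (SE 0.21, adjusted p = 0.0359). It missed the threshold when chow LiFKO replicate 1 or 2 or AMLN LiFKO replicate 2 or 3 was left out (adjusted p = 0.0699 to 0.130). The class II median was 0.63, with 7 of 7 positive, and the class I heavy chain median was 0.37, against 0.01 over all genes. Of all genes 7071 of 13815 were positive, and the 7 class II signs are not independent of each other. Whether the diet acted differently in LiFKO and Control is the same interaction as above.

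The libraries labelled DKO were compared with LiFKO and with Control on AMLN diet; the 3 comparisons on that diet share their samples, so each is given for itself. Against LiFKO, 1 member rose and 0 fell in DKO, where 5.05% of all genes rose and 5.97% fell. H2-Q10 was at 17.69, 17.47 and 17.13 in DKO, against 16.67, 16.54 and 16.56 in AMLN LiFKO, with 17.88, 17.74 and 17.31 in AMLN Control. All DKO libraries lay above all LiFKO libraries and within or near the Control range. H2-Q10 rose by 0.84 against LiFKO (SE 0.23, adjusted p = 0.0322). It missed the threshold when DKO replicate 1 or 2 or any 1 LiFKO library was left out (adjusted p = 0.0655 to 0.106), and its log2 fold change against Control was -0.21 (adjusted p = 0.740). The hepatocyte sum was at 22.16 to 22.20 in DKO, above all LiFKO libraries, with 0 of its 10 markers called against LiFKO (median log2 fold change 0.16). B2m was at 16.20, 16.36 and 16.06 in DKO, below all LiFKO libraries, with a log2 fold change of -0.38 that missed the threshold (adjusted p = 0.0927).

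Against AMLN Control, 1 member fell and 0 rose in DKO, where 0.203% of all genes fell and 0.449% rose. Psme1 was at 11.96, 12.06 and 11.75 in DKO, against 12.42, 12.38 and 12.83 in AMLN Control, and fell by 0.62 (SE 0.12, adjusted p = 0.0298). It missed the threshold when AMLN Control replicate 1 or 3 or DKO replicate 2 or 3 was left out (adjusted p = 0.0537 to 0.157). Psme1 was thus below Control in LiFKO on each diet and in DKO. All 35 log2 fold changes against Control were negative, with a median of -0.44, where 6751 of the 13815 genes were negative and the median was 0.01. The class II median was -0.75 and that of class I heavy chains -0.36; H2-T23 (-0.67, adjusted p = 0.0876) and H2-T22 (-0.58, adjusted p = 0.144) came closest to the threshold among the heavy chains. The members share libraries and reads, so the 35 signs are not independent of each other. The B cell sum was at 9.68 to 10.02 in DKO, against 10.30 to 10.95 in AMLN Control, and the dendritic cell sum at 9.12 to 9.56 in DKO, against 9.65 to 9.74 in AMLN Control. Neither sum overlapped, and 0 of the 3 B cell and 0 of the 4 dendritic cell markers were called. The macrophage sum was at 14.87 to 15.68 in DKO, against 15.38 to 15.59 in AMLN Control. The T and NK cell sum was at 6.50 to 7.52 in DKO, against 7.47 to 8.01 in AMLN Control. These last sums overlapped between the groups, and 0 of their markers were called. The part of these cells in these values was not tested.

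Class I and class II were set side by side by the mean log2 value of the 16 class I heavy chains and of the 7 class II genes, each relative to its mean in chow Control. Class I stood at 0.37 ± 0.24 in DKO, 0.47 ± 0.28 in AMLN LiFKO, 0.72 ± 0.32 in AMLN Control and 0.23 ± 0.25 in chow LiFKO (SD, n = 3). Class II stood at 0.99 ± 0.77 in DKO, 1.44 ± 0.74 in AMLN LiFKO, 1.75 ± 0.39 in AMLN Control and 0.78 ± 0.47 in chow LiFKO, with an SD of 0.35 in chow Control. Both classes thus had the same order of group means, from chow Control over chow LiFKO, DKO and AMLN LiFKO to AMLN Control, and neighbours in that order from chow LiFKO upward differed by less than the larger of their SDs. The chow LiFKO mean of class II was above that of chow Control by more than either SD, and the libraries overlapped, at 0.29 to 1.24 in LiFKO and -0.33 to 0.36 in Control. Class I minus class II was -0.62 ± 0.53 in DKO, -0.97 ± 0.46 in AMLN LiFKO, -1.02 ± 0.08 in AMLN Control, -0.56 ± 0.24 in chow LiFKO and 0 ± 0.31 in chow Control. In AMLN Control the libraries read -0.94, -1.04 and -1.09, so class II exceeded class I by a like amount in each; taken as the median over members in place of the mean, they read -0.97, -1.08 and -0.62. Because the members were chosen with results known, these means carry no test.

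**Figure D3:**
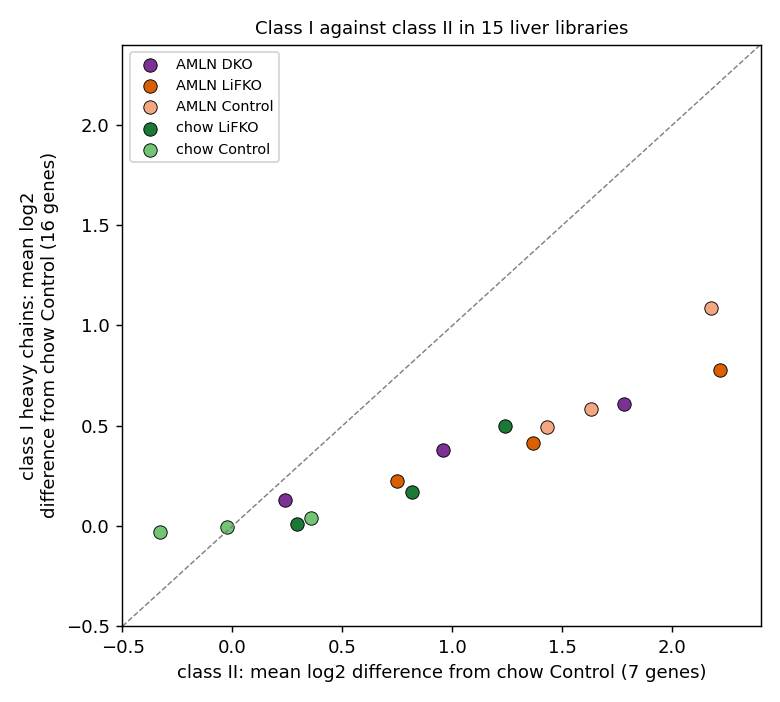
Mean log2 difference from chow Control of the 16 class I heavy chains (vertical axis) and the 7 class II genes (horizontal axis) in each of the 15 libraries, coloured by group, with equal axes and the line of equal change dashed. Apart from chow Control libraries, points lie below the line, with class II differences from 0.24 to 2.22 and class I differences from 0.01 to 1.08.

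The class II genes varied together from library to library within a group. In DKO all 7 were highest in replicate 1 and 6 were lowest in replicate 3; H2-Aa read 11.76, 10.90 and 9.83. In AMLN LiFKO all 7 were lowest in replicate 1 and 6 were highest in replicate 3. In AMLN Control all 7 were highest in replicate 3. The median SD of the class II genes was 0.91 in DKO and 0.82 in AMLN LiFKO, against 0.35 in AMLN Control, 0.43 in chow LiFKO and 0.41 in chow Control. The median SD of all genes lay between 0.15 and 0.17 in the 5 groups, and that of class I heavy chains between 0.15 and 0.42. Class I heavy chains followed in part, with 14 of 16 highest in replicate 3 in AMLN Control and 14 of 16 in AMLN LiFKO, and 13 of 16 highest in replicate 1 in DKO.

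Marker sums of immune cells moved with these libraries in part. In AMLN LiFKO the dendritic cell sum was 9.11, 9.54 and 10.01 and the T and NK cell sum 7.17, 7.90 and 8.30 in replicates 1, 2 and 3, the same order as H2-Aa. In DKO the dendritic cell sum was 9.56, 9.21 and 9.12, again in the order of H2-Aa, while the B cell sum was 9.83, 10.02 and 9.68 and the T and NK cell sum 7.19, 7.52 and 6.50. In AMLN Control the dendritic cell sum was 9.74, 9.72 and 9.65 and the B cell sum 10.95, 10.80 and 10.30, the reverse of the order of H2-Aa, and the T and NK cell sum was 7.47, 7.57 and 8.01, in its order. Their part in the spread was not tested.

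**Figure D4:**
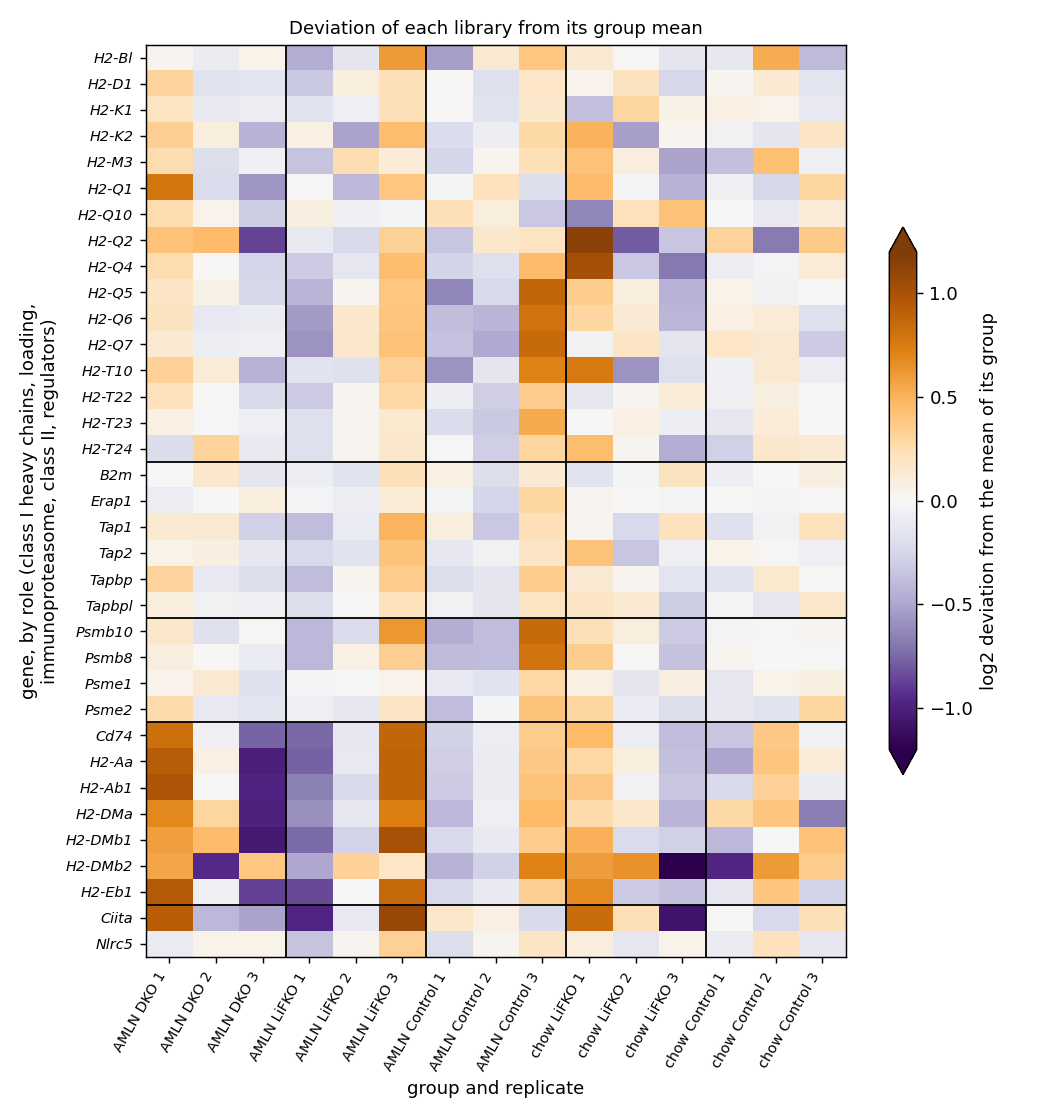
Log2 deviation of each member (vertical, by role) in each library (horizontal, 3 libraries for each of the 5 groups) from the mean of its group; the colour scale is cut at 1.2 either side of 0. Columns of 1 colour run through the class II block, such as DKO replicate 1 and AMLN LiFKO replicate 3 (high) and DKO replicate 3 and AMLN LiFKO replicate 1 (low).

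Other genes of these pathways were described from fixed lists, whose counts are to be read beside the shares of all genes called. Over all genes, 12.5% rose and 13.2% fell in chow LiFKO, and 10.1% rose and 9.63% fell in AMLN LiFKO. On AMLN in Control 11.2% rose and 11.6% fell. In DKO 5.05% rose and 5.97% fell against LiFKO, and 0.449% rose and 0.203% fell against Control. Of 17 constitutive proteasome genes, 9 fell and 0 rose in chow LiFKO (median -0.24), 12 fell and 0 rose in AMLN LiFKO (median -0.34), and 5 rose and 0 fell in DKO against LiFKO (median 0.20). On chow Psma4, a ring subunit, fell by 0.62 in LiFKO (SE 0.10, adjusted p = 0.000414). It fell by 0.59 in AMLN LiFKO and rose by 0.43 in DKO against LiFKO. In Control, 6 rose and 0 fell on AMLN against chow (median 0.18), with Psma7 up by 0.41. Psme1 thus fell in LiFKO on each diet along with constitutive subunits, and Psmb8 and Psmb10 did not pass the test there.

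Of 18 other class I pathway genes (chaperones, translocon, peptidases and class I-like molecules), 1 rose and 6 fell in chow LiFKO, and 0 rose and 4 fell in AMLN LiFKO. Cd1d1, a class I-like molecule that presents lipids to NKT cells, fell by 0.86 in LiFKO on chow (SE 0.12, adjusted p = 0.0001211). It fell by 0.79 in AMLN LiFKO (adjusted p = 0.000329) and rose by 0.48 in DKO against LiFKO (adjusted p = 0.0173). Sec61b, a subunit of the translocon, fell by 0.99 in AMLN LiFKO and rose by 0.62 in DKO against LiFKO. In DKO against LiFKO 3 of these genes rose and 0 fell.

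Of 16 measured other class II pathway genes, 5 rose and 3 fell in chow LiFKO, and 6 rose and 1 fell in AMLN LiFKO. Ctsl, a lysosomal protease that degrades the invariant chain, rose by 1.37 in LiFKO on chow (SE 0.11, adjusted p = 1.358e-06). It rose by 1.39 in AMLN LiFKO (adjusted p = 2.087e-06) and fell by 1.25 in DKO against LiFKO (adjusted p = 9.889e-06). Ctsb, another lysosomal protease, rose by 0.99 in chow LiFKO and 0.69 in AMLN LiFKO and fell by 0.71 in DKO against LiFKO. Ifi30, the lysosomal thiol reductase GILT, fell by 1.12 in DKO against LiFKO (adjusted p = 0.00133), 1 of 4 that fell there with 1 that rose. On AMLN in Control 5 rose and 2 fell, the latter near the 11.6% of all genes that fell. Ctsd rose by 0.76 and Rfxap, a subunit of the RFX factor of class II promoters, fell by 0.64. The class II chains themselves did not pass the test in either LiFKO comparison.

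Of 20 interferon-stimulated genes, 15 rose and 0 fell on AMLN in Control (median 1.12), 0 rose and 9 fell in AMLN LiFKO (median -1.10), 0 rose and 6 fell in chow LiFKO (median -0.36), and 0 rose and 4 fell in DKO against Control (median -0.93). In DKO against LiFKO 1 rose and 0 fell (median -0.13), with Ifit1 up by 0.87 (adjusted p = 0.0355). Isg15, a ubiquitin-like protein induced by interferon, rose by 1.42 on AMLN in Control (SE 0.27, adjusted p = 0.00305) and fell by 2.24 in AMLN LiFKO (adjusted p = 6.672e-05), by 1.27 in chow LiFKO and by 1.45 in DKO against Control. Of 19 measured interferon and NF-kappaB input genes, 2 rose and 2 fell on AMLN in Control, which is near the 11.2% and 11.6% of all genes; among them Irf7, an interferon regulatory factor, rose by 1.18 (adjusted p = 0.0129). In AMLN LiFKO 0 rose and 3 fell, with Irf7 down at a log2 fold change of -1.34 (adjusted p = 0.00568) and Irf9, another factor of that family, at -0.77. In chow LiFKO 1 rose and 3 fell, with Irf9 at -0.71.

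TFE3 peaks were counted at the 23 members whose start could be placed, out of 8905 such genes, with a peak centre within 10 kb of the start. On chow, the LiFKO list of 26445 peaks held a peak at 12 of the 23, where 69.9% of all genes had one, and the Control list of 11385 peaks at 6 of the 23, where 39.7% of all genes had one. The members' share was thus below that of all genes in both lists at this distance. Within 50 kb it was not lower in Control, with 16 of the 23 and 66.0% of all genes, and in LiFKO 20 of the 23 had a peak where 87.6% of all genes had one. By role, 7 of 10 class I heavy chains, 4 of 4 loading genes, 1 of 4 immunoproteasome genes and 0 of 5 class II genes had a peak in chow LiFKO, and 2, 3, 1 and 0 had one in chow Control. H2-T22 and H2-T23 were counted in chow LiFKO through the same peak (mm9 chr17:36172253-36172439). It lay 7346 bases after the H2-T22 start and 2546 before the H2-T23 start. Each list was called on pooled libraries, so there is no replicate error.

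Among the 23 members with a placed start, B2m carried the peak of the highest score in both chow lists. In chow LiFKO it lay at mm9 chr2:121973215-121973401, centred 114 bases before the start, with the authors' score of 69.1, above 98.9% of that list, and in chow Control at chr2:121973239-121973425, centred 90 bases before the start, with a score of 51.2, also at the percentile 98.9 of its list. A further B2m peak lay 6188 bases before the start in chow LiFKO and 6179 in chow Control. B2m is shown with its RefSeq promoter (GRCm38.p6, chr2:122147437-122147736, plus strand), with GAAANNGAA (the interferon regulatory factor motif) and ATTGG in capitals.
B2m: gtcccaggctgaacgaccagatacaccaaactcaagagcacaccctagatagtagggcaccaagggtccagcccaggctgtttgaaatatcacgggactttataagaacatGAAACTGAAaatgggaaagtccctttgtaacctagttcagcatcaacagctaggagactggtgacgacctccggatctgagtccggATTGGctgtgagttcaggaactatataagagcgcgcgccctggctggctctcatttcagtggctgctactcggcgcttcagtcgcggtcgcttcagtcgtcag
The E-box CACGTG, the core of the motif known for TFE3, is not in these 300 bases; it was in 2 of the 23 member promoters (Psmb10 and Erap1) and in 7.15% of all promoters. GAAANNGAA was in 5 of the 23 and in 8.56% of all promoters.

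H2-K2, annotated as a pseudogene and with no placed start, had a peak 137 bases outside its locus in chow LiFKO (score 58.5, percentile 97.6 of its list) and 136 in chow Control (53.0, percentile 99.1). H2-D1 had a peak 239 bases after the start in chow LiFKO (35.5, percentile 86.9) and 313 after it in chow Control (22.2, percentile 76.7). Peaks of the other members named here ranked lower in their lists. Tap1 had one 28 bases after the start in chow LiFKO (26.2) and 21 in chow Control (18.2). Tapbp, which encodes tapasin, had one 134 bases after the start in chow LiFKO (26.3) and 143 in chow Control (20.2), and Psme2, the beta subunit of PA28, 253 bases before the start in chow LiFKO (21.2) and 163 in chow Control (12.6). H2-Q10 had one 510 bases after the start in chow LiFKO and 1 base before it in chow Control, at percentiles 49.7 and 23.9 of their lists. Psme1, which fell in LiFKO on both diets, had none within 10 kb in either chow list; on FPC diet it had one 203 bases before the start in LiFKO+1c, 251 before it in LiFKO and 151 before it in Control, with scores of 8.55, 5.58 and 5.85 at percentiles 23.2, 8.2 and 14.6 of their lists. Scores are comparable within a list and not between lists.

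After 9 days of FPC diet, TFE3 peaks were at 16 of the 23 in LiFKO+1c (75.9% of all genes), 4 in Control+1c (31.8%), 13 in LiFKO (64.9%) and 5 in Control (30.9%). B2m had a peak within 1 kb in each of the 6 TFE3 lists, at percentile 98.3 to 99.3 of its list. Of the 5 class II genes with a placed start, H2-Eb1 was the 1 with a peak in any of them, in LiFKO+1c, 91 bases before the start with a score of 7.79. H2-Ab1, Cd74 and Ciita had no placed start. Over the gene body and 10 kb either side they had peaks in 4, 2 and 5 of the 6 lists, where 41.5% to 79.8% of all genes had one. Ciita had a peak inside the gene at percentile 71.3 in chow LiFKO and 54.2 in chow Control. The headers of the FPC lists for Control, Control+1c and LiFKO name an input among the pooled ChIP libraries and a ChIP as input, against the labels, so these 3 lists are less certain. HA peaks, which mark the tagged nSREBP-1c, were at 3 of the 23 in LiFKO+1c (4.12% of all genes) and 4 in Control+1c (5.45%); a peak 62 bases before H2-Q6 had a score of 20.6 in LiFKO+1c and 18.1 in Control+1c, at percentiles 98.0 and 97.2. H2-Q10 had an HA peak 50 bases before the start in LiFKO+1c and 58 in Control+1c, and H2-Q4 one 80 bases before it in LiFKO+1c. The header of the HA LiFKO+1c list names a TFE3 library, again against the labels.

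**Figure D5:**
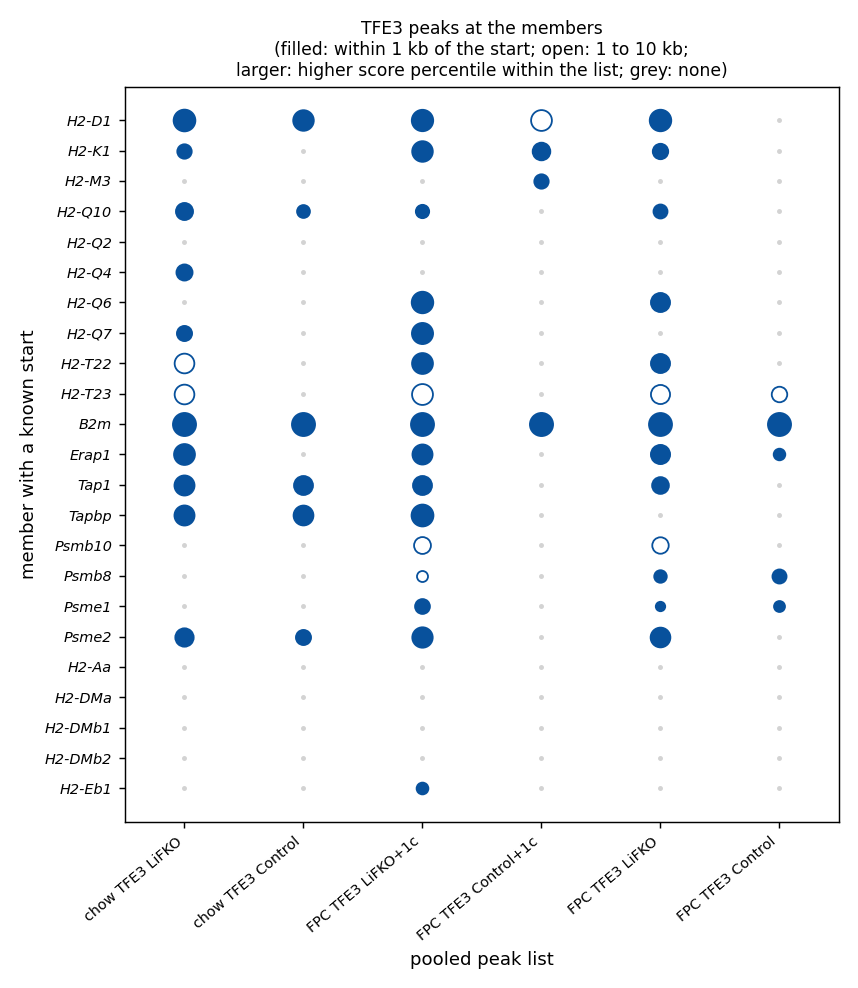
TFE3 peaks at the 23 members with a known start (vertical axis, by role) in the 6 pooled lists (horizontal axis): filled circles within 1 kb of the start, open circles from 1 to 10 kb, larger circles for a higher score percentile within the list, grey dots for none. B2m has a large filled circle in all 6 lists, and the 5 class II genes at the bottom have 1 circle, H2-Eb1 in LiFKO+1c.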

How the data were processed

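The authors deposited RNA-seq of 15 libraries as log2 values for 13815 genes. Upstream, the submitters' processing notes name bcl2fastq 2.17, Trimmomatic 0.32, STAR 2.6.0c, SAMtools, featureCounts and limma for it. Their maximum was 21.47 in every library and their medians 9.791 to 9.799, as quantile normalisation gives. No counts were used: 6 per-sample columns of tag counts in another table were not mapped to samples. Peak lists give the authors' HOMER peak score on pooled libraries, per the file headers, and the submitters' processing notes name HOMER 4.11 after Bowtie2 2.2.8 for chow and HOMER 4.4 after Bowtie2 2.2.6 for FPC diet. A deposited differential list gives the authors' log2 fold change and adjusted p-value, for which the file headers name DESeq2 within HOMER.

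A mean per group was fitted over all 15 libraries with limma 3.58.1 in R 4.3.3 (10 residual degrees of freedom, eBayes with trend=TRUE), in 7 contrasts, two-sided, with Benjamini-Hochberg adjustment over all genes and calls under 0.05. SE is the moderated standard error, and the code was tested on simulated data. Members and lists were chosen with earlier results of these data known. Every member could be named, and of other lists up to 3 called genes a comparison with the smallest p. Gene starts are the edge of the file's mm9 locus on the strand RefSeq gives (GRCm38.p6) where 1 strand was found, for 64.5% of genes. Percent values, peak distances and motif matches were computed in Python 3.11.15 with numpy 2.4.6 and pandas 2.3.3, and figures drawn with matplotlib 3.10.9. Peaks were taken as the authors' files give them. The alternatives are listed with their effect in the closing section; gene body counts of peaks were added after the data were seen.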

Additional observations from a re-analysis of the deposited data

How the results depend on the processing

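Of 733 results of single members under alternative settings, covering 53 pairs of member and comparison, 638 kept their direction and side of the threshold, 58 lost a call, 34 gained one and 3 changed sign. The 3, none of them called in the full fit, were Erap1 for AMLN against chow in Control (-0.26 to 0.014 without 1 library, positive without AMLN Control replicate 2), Erap1 for LiFKO against Control on AMLN (-0.038 to 0.24, negative without the same library) and B2m for LiFKO against Control on AMLN (-0.015 to 0.18, negative without AMLN LiFKO replicate 3). Members that rose on AMLN in Control were 18 in all and 12 to 17 without 1 library, those that fell 0 and 0 to 1, and 1 after centring on the constitutive proteasome. Members that rose in chow LiFKO were 3 in all, 5 with library weights, 1 among genes above the lower quartile, 5 in a fit of the groups compared, 7 after centring and 2 to 4 without 1 library. On AMLN, LiFKO against Control gave 0 that rose (4 after centring, 0 to 1 without 1 library) and 3 that fell (2 to 5 without 1 library). AMLN against chow in LiFKO gave 1 that rose, 0 without a variance trend, 2 with library weights, 0 in the groups compared alone and 0 to 1 without 1 library. DKO against LiFKO gave 1 that rose (0 after centring, 0 to 1 without 1 library) and 0 that fell (4 after centring, 0 to 1 without 1 library), and DKO against Control 1 that fell (0 without a variance trend, 0 in the groups compared alone, 0 to 2 without 1 library).

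Centring each library on the constitutive proteasome, a list that itself fell in LiFKO, moved the median of all genes from -0.05 to 0.17 in chow LiFKO, from -0.04 to -0.23 for AMLN in Control, from -0.02 to 0.30 in AMLN LiFKO and from 0.02 to -0.18 in DKO against LiFKO, so its counts follow that shift. With the replicate block, the rise of H2-Q10 in DKO against LiFKO was lost (0 members), and with a replicate block within diet the fall of Psme1 in DKO against Control was lost (0 members), while AMLN in Control kept a count of 18 with the replicate block. Replicate numbers were not treated as pairs, since 7 of 30 same-number pairs correlated over 0.1 (-0.185 to 0.237) and the best match of 7 of 15 libraries had the same number. Class I minus class II, without 1 library, ranged from -0.72 to -0.41 in chow LiFKO, -1.18 to -0.87 for AMLN in Control, -0.17 to 0.29 in AMLN LiFKO, -0.64 to -0.18 for AMLN in LiFKO, 0.10 to 0.63 for DKO against LiFKO and 0.15 to 0.68 for DKO against Control. Members with a chow TFE3 peak were 20 in LiFKO and 16 in Control within 50 kb of the start, and 21 and 10 of all 35 within the gene body and 10 kb either side, where 87.6% and 66.0%, and 73.7% and 48.1%, of all genes had one. Depth is unknown and the peak lists have no replicates.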

Other observations

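In the authors' deposited table of FPC peaks that differ between LiFKO+1c and LiFKO, none of 96 peaks was assigned to a member, and 1 lay at Mr1, a class I-like molecule that presents vitamin B metabolites to MAIT cells. The authors' deposited table gives that peak, 1045 bases after the start, a log2 fold change of 2.2 (LiFKO+1c over LiFKO) and an adjusted p of 1.038e-05. A header of that table names an input among its background libraries, against the labels.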
